A study of Homo sapiens with 32 samples.

Results

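The migration and matrix-binding integrins are the genes ITGA2, ITGA3, ITGA5, ITGAV, ITGB1, ITGB5, ITGB6 and ITGB8, chosen by symbol from the deposited expression table. They are 8 of the 26 integrin subunit symbols and 8 of the 19345 symbols in that table, and all 8 passed the filter on low values (at least 1 TPM in at least 6 libraries), as did 12221 symbols in all. TPM is a transcript level scaled by transcript length and by the library's total, so TPM values can be set side by side between genes. Bulk RNA was sequenced from EPC2, an hTERT-immortalized human esophageal epithelial line of wild-type genotype. Cells were taken as a monolayer at day 0 (D0, 10 libraries), as spheroids at day 3 (D3, 9 libraries), as day 11 spheroids given IL-13 (D11 IL-13, 6 libraries) and as untreated day 11 spheroids (D11 untreated, 7 libraries). Each spheroid culture began with 40000 cells in a 20 µl droplet of Matrigel, a basement membrane extract, under keratinocyte serum-free medium with 0.6 mM CaCl2. IL-13, the type 2 cytokine of eosinophilic esophagitis, was added at 20 ng/ml starting on day 3. All libraries come from 1 cell line, in 2 experiments that the labels call batch 1 and batch 2. Nothing states that replicates are separate cultures, so p-values measure the spread between these libraries, which may be technical.

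Integrins are transmembrane receptors made of an alpha and a beta subunit, and the pair decides which matrix protein is bound. ITGB1 is the shared beta chain of the collagen receptor (with ITGA2), the laminin receptor (with ITGA3) and the fibronectin receptor (with ITGA5). ITGAV pairs with ITGB5 in a vitronectin receptor, and with ITGB6 or ITGB8 in receptors that release active TGF-beta from its latent complex. In stratified squamous epithelium these receptors sit mainly on basal cells, and several of them are known to increase in keratinocytes that migrate over a wound.

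The 8 genes lie on 7 chromosomes in hg38, by the GENCODE release 29 annotation, and all are protein-coding. ITGA2 spans chr5:52989326-53094779 on the plus strand, ITGA3 chr17:50055968-50090481 on the plus strand, and ITGA5 chr12:54395261-54419460 on the minus strand. ITGAV spans chr2:186590065-186680901 on the plus strand and ITGB6 chr2:160099666-160200313 on the minus strand. ITGB1 spans chr10:32900319-33005792, ITGB5 chr3:124761948-124901418, both on the minus strand, and ITGB8 chr7:20330702-20415754 on the plus strand. For 6 of the 8 genes the annotation has another gene on the opposite strand, and the use of strand in the counting is not given in the sources used here, so such reads cannot be told apart.

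Promoter windows are shown for ITGA5, which had the largest change among the 8 genes at both spheroid steps as deposited (at D11 against D3 that of ITGA3 was larger under quantile normalization and with the mitochondrial genes removed), for its beta partner ITGB1, and for ITGAV and ITGB6, a receptor pair whose mRNAs moved in opposite directions under IL-13. Each runs from 250 bases before a RefSeq start to the first transcribed base (build GRCh38.p14, 5′ to 3′ on the gene's strand). Capitals mark letters that match TGANTCA, the AP-1 motif, GGAATG, the TEAD motif, or TTC and GAA with any 4 bases between, the STAT6 motif, on either strand, and no motif overlaps another in these windows. ITGA5 is at chr12:54419266-54419516 (minus), ITGB1 at chr10:32958230-32958480 (minus), ITGB6 at chr2:160200272-160200522 (minus), and the ITGAV window, before the downstream of its 2 listed starts, at chr2:186599955-186600205 (plus).
ITGA5: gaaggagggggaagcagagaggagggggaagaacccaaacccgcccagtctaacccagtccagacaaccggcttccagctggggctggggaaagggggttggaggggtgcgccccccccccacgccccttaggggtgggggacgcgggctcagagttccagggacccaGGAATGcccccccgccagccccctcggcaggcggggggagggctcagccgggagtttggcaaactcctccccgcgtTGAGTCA
ITGB1: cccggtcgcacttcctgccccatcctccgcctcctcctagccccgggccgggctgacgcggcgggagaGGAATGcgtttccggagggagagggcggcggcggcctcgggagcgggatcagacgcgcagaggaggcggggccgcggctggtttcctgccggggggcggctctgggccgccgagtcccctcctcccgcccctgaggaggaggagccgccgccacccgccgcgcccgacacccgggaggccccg
ITGB6: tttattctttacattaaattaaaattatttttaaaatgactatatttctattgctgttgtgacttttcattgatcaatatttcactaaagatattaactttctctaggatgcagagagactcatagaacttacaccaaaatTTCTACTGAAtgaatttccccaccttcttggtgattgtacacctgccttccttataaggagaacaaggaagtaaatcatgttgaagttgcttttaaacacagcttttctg
ITGAV: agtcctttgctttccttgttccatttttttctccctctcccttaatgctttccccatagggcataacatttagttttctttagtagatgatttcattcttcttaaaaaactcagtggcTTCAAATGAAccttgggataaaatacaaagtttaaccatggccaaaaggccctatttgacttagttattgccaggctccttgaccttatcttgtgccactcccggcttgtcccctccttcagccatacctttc
ITGA5 held the AP-1 letters across its start (-6 to +1) and the TEAD letters at -82 to -77, and ITGB1 held the TEAD letters at -182 to -177. ITGB6 held the STAT6 letters at -109 to -100 and the ITGAV window held them at -132 to -123. The other ITGAV window, at the upstream start (70.5% G or C), and the other ITGB1 window (41.4% G or C) held none of these 3 motifs. Nor did any window of ITGA2, ITGB5 or ITGB8. The windows shown are thus the only ones of the 11 windows of these genes that held any of the 3 motifs. Among all 35116 RefSeq promoter windows of that length, 6.73% held the AP-1 letters, 11.9% the TEAD letters and 5.40% the STAT6 letters. The 8 genes have 11 windows for 7 genes (ITGA3 has none), and 6 of these windows, in ITGA2, ITGA5, ITGB1, ITGB5 and ITGB8, held the SP1 letters GGGCGG on either strand, as did 42.7% of all windows. Base composition differed widely: 30.3% of the ITGB6 window was G or C, against 78.5% of the ITGB1 window shown and 69.7% of the ITGA5 window. These matches are a description of the letters only.

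Libraries differed by more than their group. The 13 mitochondrially encoded genes took 44.8% to 50.1% of all TPM in the monolayer and 39.1% to 57.1% at D3, but 13.2% to 25.6% at D11 with IL-13 and 14.8% to 27.9% at D11 untreated, so every other gene's TPM depends on that share. D3 library 4, labelled batch 1, lay nearer to the batch 2 median profile (root mean square difference 0.261 on the log2 scale, against 0.517 to batch 1), and D3 library 7, labelled batch 2, nearer to batch 1 (0.221 against 0.463). Leaving both out changed none of 16 member calls and moved no member's value by more than 0.038 on the log2 scale. IL-13 library 1 differed from the median of its group by 0.574, against 0.258 to 0.306 for the other 5. The esophageal basal marker KRT5 was abundant throughout (at least 12360 TPM in every library), and the endothelial marker PECAM1 was listed at 0 in every library. The sum of 8 fibroblast markers was 3.4 to 9.6 TPM in the monolayer, 8.1 to 30.4 TPM at D3, 22.0 to 46.9 TPM at D11 with IL-13 and 58.0 to 78.1 TPM at D11 untreated. Nearly all of it was COL1A1, while COL1A2 and COL3A1 were listed at 0 in every library. The sum of 9 immune and endothelial markers was 152.8 to 250.1 TPM in the monolayer, 134.0 to 207.7 TPM at D3, 339.5 to 467.2 TPM at D11 with IL-13 and 439.7 to 504.8 TPM at D11 untreated. CD68, a lysosomal protein also made by epithelial cells, gave most of that sum (110.5 to 480.1 TPM over all libraries). CD14, a monocyte marker, had 0.3 to 5.1 TPM in the monolayer, 23.3 to 39.3 TPM at D3, 22.3 to 122.3 TPM at D11 with IL-13 and 10.0 to 58.8 TPM at D11 untreated. The part of these markers in the integrin changes was not tested. The sum of 9 columnar and ciliated markers was 284.1 to 534.0 TPM in the monolayer, 64.1 to 123.3 TPM at D3, 52.8 to 86.7 TPM at D11 with IL-13 and 58.6 to 108.4 TPM at D11 untreated. Of these 9 markers only 2 passed the filter on low values, and MUC2 and MUC5AC were listed at 0 in every library. ITGA2B, the 1 platelet marker in the table, was at most 0.3 TPM.

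**Figure D1:**
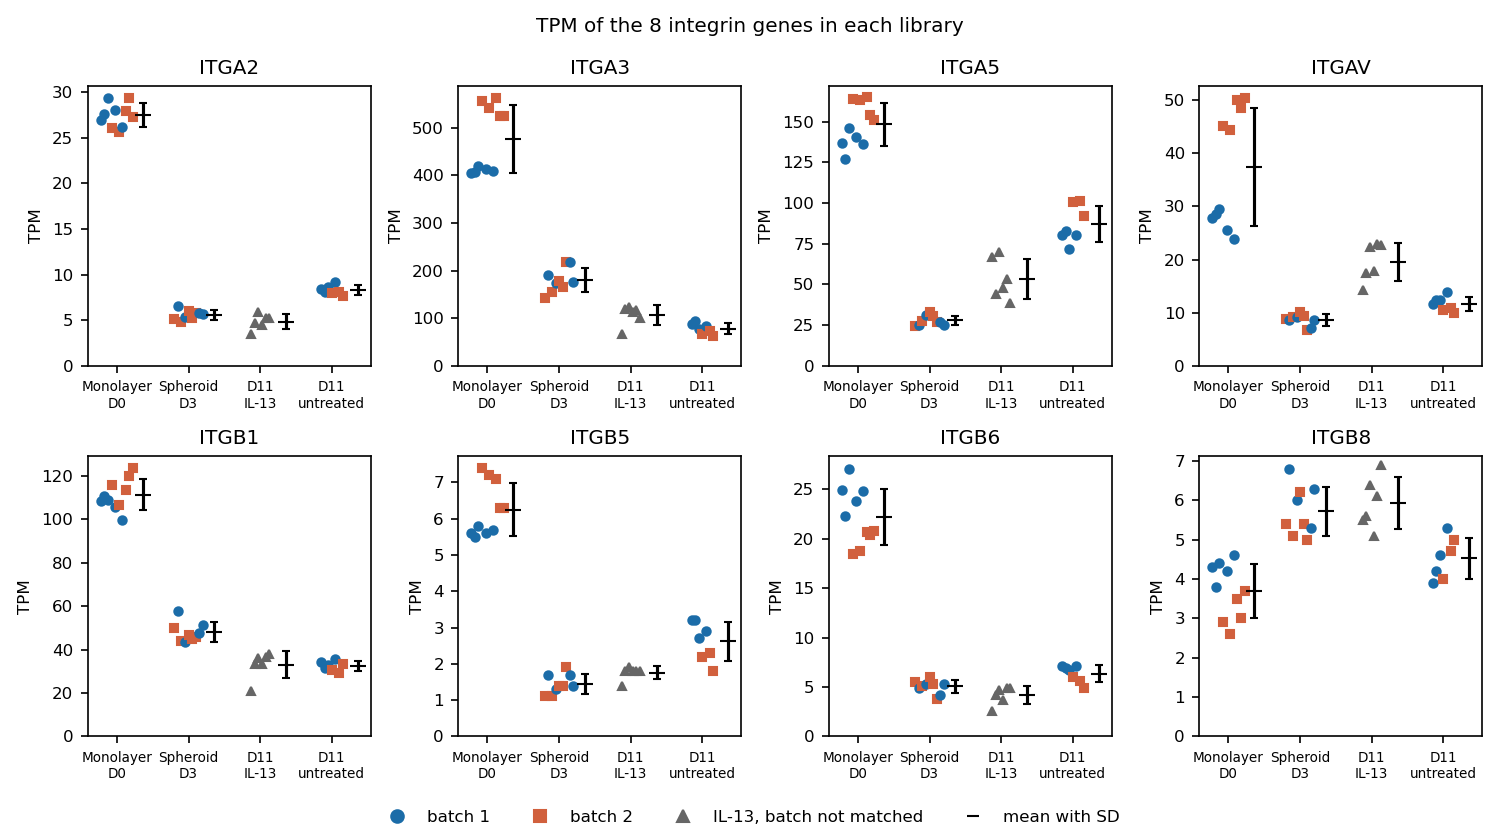
TPM (y axis, linear, from 0) of the 8 integrin genes in each of 32 libraries, by group along the x axis, with point shape and colour for the labelled batch and a bar for the group's mean and SD. In every panel but ITGB8 the monolayer libraries are the highest, and the monolayer libraries of ITGA3 and ITGAV split by batch.

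ITGA3 was the most abundant of the 8 genes in the monolayer, at D3 and at D11 with IL-13, while at D11 untreated the order differed by batch: ITGA5 averaged 98.0 TPM and ITGA3 67.3 TPM in batch 2, and ITGA5 79.0 TPM and ITGA3 86.2 TPM in batch 1. The summed level of the 8 genes was 833.5 ± 95.7 TPM in the monolayer (SD, n = 10), 282.2 ± 25.8 TPM at D3 (n = 9), 229.7 ± 29.9 TPM at D11 with IL-13 (n = 6) and 231.1 ± 10.1 TPM at D11 untreated (n = 7). Their share of the TPM of all 26 integrin subunits was 66.0%, 58.2%, 50.5% and 41.7% in the same order. Most of the remainder came from ITGA6 and ITGB4, the laminin receptor of hemidesmosomes.

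The first comparison set D3 spheroids against the monolayer. Of the 8 genes, 7 fell and 1, ITGB8, rose. ITGA5 and ITGA2, the alpha chains that bind fibronectin and collagen, fell the most, and ITGB1, their shared beta chain, fell the least of the 7. Over all tested genes 68.2% fell and 12.7% rose, so a fall was the common outcome at this step. The median log2 change of the 8 genes was -1.75, against -0.44 over all tested genes.

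Among the alpha chains that pair with ITGB1, ITGA5 had 24.6, 26.9 and 32.8 TPM (lowest, median and highest) at D3, against 127.4, 148.7 and 165.0 TPM in the monolayer. The D3 values all lay below the monolayer values. ITGA5 fell by 2.38 on the log2(TPM + 1) scale (SE 0.08, limma adjusted p = 1.2e-21). ITGA2 had 4.8, 5.7 and 6.6 TPM at D3, against 25.6, 27.5 and 29.4 TPM in the monolayer, again with no overlap, and fell by 2.11 (SE 0.06, limma adjusted p = 4.3e-24). ITGA3, the laminin-binding chain, had 142.6, 175.7 and 217.8 TPM at D3, against 404.5, 472.4 and 562.9 TPM in the monolayer, and fell by 1.40 (SE 0.11, limma adjusted p = 7e-13). ITGA3 stayed abundant at D3, at a mean of 179.9 ± 25.7 TPM (SD, n = 9), which exceeded 97.0% of the tested genes. ITGB1 had 43.4, 46.8 and 57.9 TPM at D3, against 99.7, 109.9 and 123.8 TPM in the monolayer, and fell by 1.20 (SE 0.08, limma adjusted p = 7.5e-15).

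The ITGAV group split. ITGAV had 6.7, 8.9 and 10.2 TPM at D3, against 23.9, 37.0 and 50.5 TPM in the monolayer, and fell by 1.96 (SE 0.12, limma adjusted p = 2.3e-15). ITGB6, the epithelial partner that activates latent TGF-beta, had 3.8, 5.3 and 6.0 TPM at D3, against 18.5, 21.6 and 27.1 TPM in the monolayer, and fell by 1.93 (SE 0.08, limma adjusted p = 3.3e-19). In both genes every D3 library was below every monolayer library. ITGB5 was low at D3 (1.1 to 1.9 TPM) and was 5.5 to 7.4 TPM in the monolayer, and it fell by 1.57 (SE 0.08, limma adjusted p = 7.1e-18), a change that log2(TPM + 1) understates at such levels. ITGB8, the other partner that activates latent TGF-beta, went the opposite way. It had 5.0, 5.4 and 6.8 TPM at D3, against 2.6, 3.75 and 4.6 TPM in the monolayer, with the lowest D3 library above the highest monolayer library. ITGB8 rose by 0.54 (SE 0.07, limma adjusted p = 2.6e-08).

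At this step the libraries of the 2 groups did not overlap for any of the 8 genes, while 44.3% of all tested genes had no overlap. The 8 directions and calls were kept under 3 other scalings. Called genes split 15.7% higher as deposited but 50.1% higher under median-of-ratios scaling and 45.6% under quantile normalization, which moved the all-gene median to -0.01 and -0.04. Under those scalings the median change of the 8 genes was -1.30 and -1.34, and that of ITGB8 was 0.97 and 1.00. In bulk RNA, fewer cells of a type and less RNA per cell cannot be told apart. The sum of 6 suprabasal markers was 95.2 to 838.6 TPM at D3, against 0.9 to 3.0 TPM in the monolayer, and all 6 rose. That of 7 basal markers was 56750 to 84280 TPM at D3, against 19490 to 24120 TPM in the monolayer. KRT5 alone gave 30270 to 44330 TPM at D3 and 12360 to 16430 TPM in the monolayer. As deposited 4 of the 7 basal markers rose, 2 fell and 1 was not called. Over all tested genes 12.7% rose and 68.2% fell. Under median-of-ratios scaling all 7 basal markers rose. The part of these shifts in the result was not tested.

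**Figure D2:**
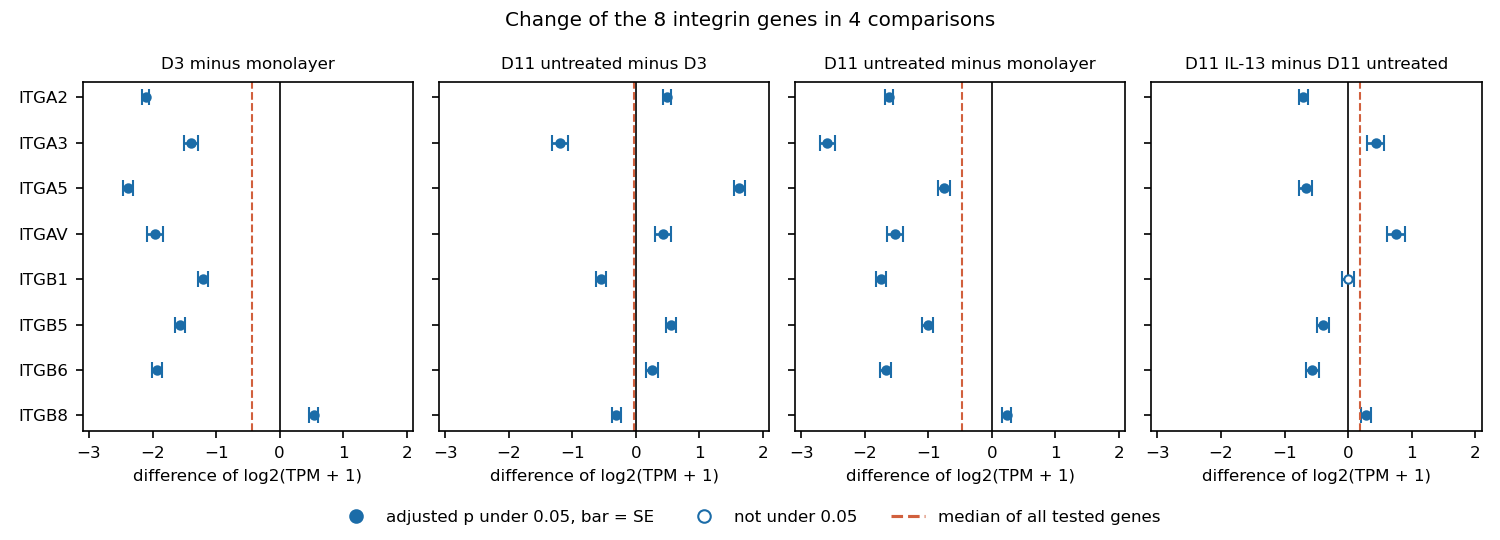
Difference of log2(TPM + 1) (x axis) for each of the 8 integrin genes in 4 comparisons, each panel titled with the group first in the difference. Points are limma estimates with SE bars, and the dashed line is the median of all tested genes. ITGB8 is the 1 gene above 0 in both panels that set spheroids against the monolayer (for D11 it turns below 0 with the mitochondrial genes removed), and the open point is ITGB1 under IL-13.

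From D3 to D11 without IL-13 the 8 genes did not move together. ITGA5 rose, and ITGA3, ITGB1 and ITGB8 fell, under all 4 scalings tried. ITGA2, ITGAV, ITGB5 and ITGB6 rose in TPM as deposited, but with the mitochondrial genes removed and TPM rescaled their changes were -0.03, -0.12, 0.18 and -0.26, and ITGB6 was then called lower (limma adjusted p = 0.019). As deposited 5 of the 8 genes rose and 3 fell, where 33.6% of all tested genes rose and 35.8% fell. The median change was 0.34 for the 8 genes and -0.02 for all tested genes.

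ITGA5 had 72.1, 82.9 and 101.6 TPM (lowest, median and highest) at D11 untreated, against 24.6, 26.9 and 32.8 TPM at D3. The groups were far apart, and the mean ratio of D11 to D3 was 3.12. ITGA5 rose by 1.63 on the log2(TPM + 1) scale (SE 0.09, limma adjusted p = 5e-16) and by 1.05 with the mitochondrial genes removed. ITGA3 had 63.4, 78.1 and 94.5 TPM at D11 untreated, against 142.6, 175.7 and 217.8 TPM at D3, with no overlap. It fell by 1.19 (SE 0.12, limma adjusted p = 3.4e-10), so the fibronectin-binding and the laminin-binding alpha chains of ITGB1 changed in opposite directions. ITGB1 itself had 29.1, 32.7 and 35.6 TPM at D11 untreated, against 43.4, 46.8 and 57.9 TPM at D3, and fell by 0.55 (SE 0.08, limma adjusted p = 1.2e-06). ITGA2 had 7.7, 8.1 and 9.2 TPM at D11 untreated, against 4.8, 5.7 and 6.6 TPM at D3, without overlap, and its change as deposited was 0.49 (SE 0.06, limma adjusted p = 5.8e-08).

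ITGAV, ITGB5, ITGB6 and ITGB8 overlapped between D11 untreated and D3. ITGAV had 10.0, 11.7 and 13.9 TPM at D11 untreated, against 6.7, 8.9 and 10.2 TPM at D3 (change 0.43, SE 0.13, limma adjusted p = 0.0047). ITGB5 had 1.8 to 3.2 TPM at D11 untreated, against 1.1 to 1.9 TPM at D3 (change 0.55, SE 0.08, limma adjusted p = 8e-07). ITGB6 had 4.9, 6.7 and 7.1 TPM at D11 untreated, against 3.8, 5.3 and 6.0 TPM at D3 (change 0.26, SE 0.09, limma adjusted p = 0.014). ITGB6 passed the threshold as deposited but not with library weights (change 0.13, adjusted p = 0.15). ITGB8 had 3.9, 4.6 and 5.3 TPM at D11 untreated, against 5.0, 5.4 and 6.8 TPM at D3, and fell by 0.31 (SE 0.08, limma adjusted p = 0.00064). In TPM its mean at D11 untreated lay between those of the monolayer and D3.

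Ranges did not overlap for 4 of the 8 genes (ITGA2, ITGA3, ITGA5 and ITGB1), against 38% of all tested genes. Removing the mitochondrial genes moved the all-gene median of this comparison to -0.52 and the share of calls that were higher to 17.2%, against 48.4% as deposited. Relative to that shifted median, ITGA3, ITGB1 and ITGB8 (changes -1.79, -1.14 and -0.86) lay below it, and the other 5 lay above it. Suprabasal markers summed to 4341 to 6076 TPM at D11 untreated, against 95.2 to 838.6 TPM at D3. Basal markers summed to 46800 to 71000 TPM at D11 untreated, against 56750 to 84280 TPM at D3. Of the 6 suprabasal markers 4 rose and 2 fell under all 4 scalings. Of the 7 basal markers 1 rose and 3 fell as deposited, and 1 rose and 6 fell with the mitochondrial genes removed. Over all tested genes 33.6% rose and 35.8% fell as deposited. The part of these marker shifts in the integrin changes was not tested.

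**Figure D3:**
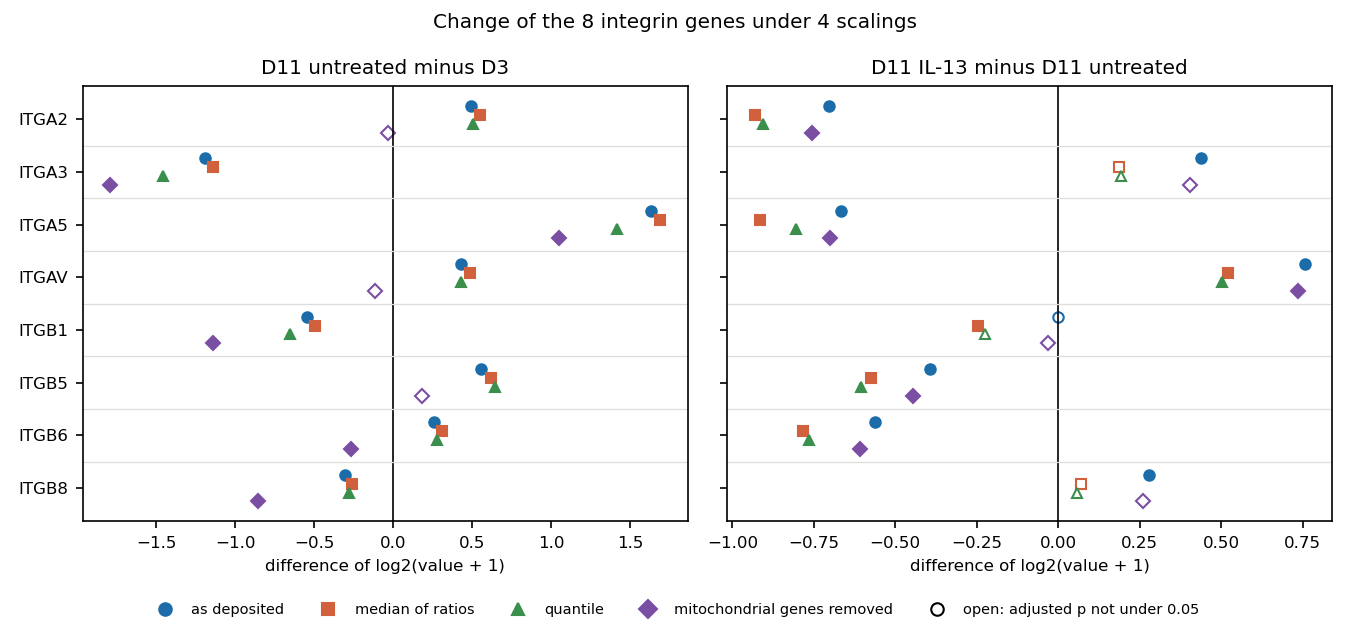
Difference of log2(value + 1) (x axis) of the 8 integrin genes under 4 scalings, for D11 untreated minus D3 (left) and D11 IL-13 minus D11 untreated (right). Filled points have a limma adjusted p under 0.05. With the mitochondrial genes removed, the left-hand points of ITGA2, ITGAV and ITGB6 lie below 0, and on the right ITGA3 and ITGB8 are filled under the deposited scaling alone.

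Set against the monolayer, D11 untreated spheroids held less of 7 genes and more of 1, ITGB8, where 63.5% of all tested genes fell and 21% rose. ITGA3 fell by 2.59 (SE 0.12, limma adjusted p = 6e-19), the largest net change of the 8, to a mean of 78.1 ± 11.5 TPM at D11 untreated (SD, n = 7), against 476.5 ± 70.6 TPM in the monolayer (SD, n = 10). ITGB1, ITGB6, ITGA2 and ITGAV fell by 1.75, 1.68, 1.62 and 1.53 (SE 0.06 to 0.13, limma adjusted p at most 2.1e-12). ITGB5 fell by 1.01 (SE 0.08, limma adjusted p = 7.7e-13). ITGA5 had the smallest fall, 0.75 (SE 0.09, limma adjusted p = 2.9e-09), with 87.1 ± 11.2 TPM at D11 untreated and 148.6 ± 13.2 TPM in the monolayer. Under median-of-ratios scaling its change was -0.16 and missed the threshold (adjusted p = 0.17).

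ITGB8 rose by 0.23 between the monolayer and D11 untreated (SE 0.07, limma adjusted p = 0.0047), with 3.9 to 5.3 TPM at D11 untreated and 2.6 to 4.6 TPM in the monolayer. That direction turned to -0.25 (adjusted p = 0.012) with the mitochondrial genes removed, and the call was lost in batch 1 alone (change 0.06, adjusted p = 0.51). The other 7 genes did not overlap between these groups, nor did 58.7% of all tested genes. The median change was -1.57 for the 8 genes and -0.48 for all tested genes, and calls were 24.8% higher as deposited, against 50.1% under median-of-ratios scaling, 44.6% under quantile normalization and 13.3% without the mitochondrial genes. The comparisons at D3 and D11 share libraries, so they are not independent of each other.

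IL-13 changed the integrin profile of D11 spheroids in both directions. ITGAV rose, and ITGA2, ITGA5, ITGB6 and ITGB5 fell, under all 4 scalings. ITGA3 and ITGB8 rose as deposited but missed the threshold under each of 3 other scalings. ITGB1 did not pass the test as deposited. The counts were 3 higher, 4 lower and 1 not called, where 39.2% of all tested genes rose and 8.49% fell, so the 4 falls were in the less common direction as deposited. Under median-of-ratios scaling 2362 genes rose and 2515 fell, and under quantile normalization 2289 rose and 2536 fell. The median change was -0.20 for the 8 genes and 0.19 for all tested genes.

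ITGAV had 14.2, 20.1 and 22.9 TPM (lowest, median and highest) with IL-13, against 10.0, 11.7 and 13.9 TPM untreated. Every IL-13 library lay above every untreated library. ITGAV rose by 0.76 on the log2(TPM + 1) scale (SE 0.15, limma adjusted p = 0.00012). ITGB6 had 2.6, 4.45 and 4.9 TPM with IL-13, against 4.9, 6.7 and 7.1 TPM untreated, so the ranges met at 1 value. It fell by 0.56 (SE 0.10, limma adjusted p = 4.8e-05). ITGB5 fell by 0.39 (SE 0.09, limma adjusted p = 0.001), to 1.4 to 1.9 TPM with IL-13, against 1.8 to 3.2 TPM untreated. ITGAV and these 2 of its beta partners moved in opposite directions. ITGB8 had 5.1, 5.85 and 6.9 TPM with IL-13, against 3.9, 4.6 and 5.3 TPM untreated, and rose by 0.28 as deposited (SE 0.08, limma adjusted p = 0.0072), with 0.07 under median-of-ratios scaling (adjusted p = 0.58).

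ITGA2 had 3.5, 4.95 and 5.9 TPM with IL-13, against 7.7, 8.1 and 9.2 TPM untreated, without overlap. It fell by 0.70 (SE 0.07, limma adjusted p = 2.8e-09), and its level with IL-13 overlapped that at D3. ITGA5 had 38.5, 50.7 and 69.7 TPM with IL-13, against 72.1, 82.9 and 101.6 TPM untreated, also without overlap, and fell by 0.67 (SE 0.10, limma adjusted p = 3.9e-06). ITGA3 had 67.0 TPM in IL-13 library 1 and 101.1 to 123.8 TPM in the other 5, against 63.4, 78.1 and 94.5 TPM untreated. Its rise as deposited was 0.44 (SE 0.13, limma adjusted p = 0.0081) and was 0.56 without IL-13 library 1. ITGB1 had 21.0 TPM in IL-13 library 1 and 33.3 to 37.8 TPM in the other 5, against 29.1, 32.7 and 35.6 TPM untreated. Its change was -0.0016 with that library (SE 0.09, limma adjusted p = 0.99), 0.12 without it (adjusted p = 0.13) and -0.25 under median-of-ratios scaling (adjusted p = 0.0076).

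No overlap was seen for ITGA2, ITGA5 and ITGAV, 3 of the 8 genes, against 13.7% of all tested genes. The share of calls that were higher was 82.2% as deposited, 48.4% under median-of-ratios scaling and 47.4% under quantile normalization, and those scalings moved the all-gene median to 0.00 and -0.01. By the labels 5 of the 6 IL-13 libraries belong to batch 1 and 1 to batch 2, and the columns do not say which, so the fit gave each the share of its group. Against the 4 untreated D11 libraries of batch 1 alone, 6 of the 7 calls held and that of ITGA3 did not (change 0.28, adjusted p = 0.16). In that fit, which had no batch term, 2414 of all 12221 tested genes were higher and 765 lower, against 4785 and 1037 in the main fit. The suprabasal markers summed to 11990 to 19320 TPM with IL-13, against 4341 to 6076 TPM untreated. The basal markers summed to 49520 to 74370 TPM with IL-13, against 46800 to 71000 TPM untreated. Of the 6 suprabasal markers 4 rose and 2 fell under all 4 scalings. Of the 7 basal markers 2 rose and 0 fell by limma as deposited. Over all tested genes 39.2% rose and 8.49% fell as deposited. The part of these markers in the integrin changes under IL-13 was not tested.

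The mRNA make-up of a set of beta chains and of a set of alpha chains was also described, as shares of summed TPM with no test. The first set held ITGB5, ITGB6 and ITGB8, beta chains that pair with ITGAV. ITGB1 (group means 32.5 to 111.4 TPM) and ITGB3, which can also pair with ITGAV, were left out of it. In that set ITGB6 made up 68.9% ± 2.8 in the monolayer (SD, n = 10) and 41.3% ± 3.9 at D3 (n = 9). It made up 34.8% ± 3.8 at D11 with IL-13 (n = 6) and 46.9% ± 2.9 at D11 untreated (n = 7). ITGB8 made up 11.4% ± 1.3, 46.8% ± 2.0, 50.3% ± 3.9 and 33.9% ± 5.1 in the same order. ITGB8 thus exceeded ITGB6 in mean share at D3 and at D11 with IL-13, and lay below it in the monolayer and at D11 untreated. In TPM ratios, ITGB6 over ITGB8 ranged from 5.39 to 7.23 over the monolayer libraries, from 0.72 to 1.02 at D3, from 0.47 to 0.80 with IL-13 and from 0.98 to 1.82 at D11 untreated. The IL-13 range and the untreated D11 range did not overlap.

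The second set held ITGA2, ITGA3 and ITGA5, alpha chains that pair with ITGB1. Other alpha chains that can pair with ITGB1, among them ITGAV and ITGA6 (group means 67.5 to 121.3 TPM), were left out of it. In that set the laminin-binding ITGA3 made up 72.9% ± 1.7 in the monolayer and 84.1% ± 2.1 at D3. It made up 64.4% ± 8.2 at D11 with IL-13 and 45.0% ± 5.8 at D11 untreated. ITGA5 made up 22.9% ± 1.2, 13.2% ± 2.0, 32.6% ± 8.4 and 50.2% ± 6.0 in the same order. At D11 untreated the order of the 2 genes split by batch. ITGA5 made up 55.7% to 57.7% and ITGA3 37.7% to 39.8% in batch 2, and ITGA5 44.7% to 46.3% and ITGA3 48.4% to 50.9% in batch 1. ITGA2 made up at most 5.48% in any library. The ratio of ITGA5 to ITGA3 was 0.12 to 0.19 at D3 and 0.88 to 1.53 at D11 untreated. With IL-13 it was 0.37 to 1.00, the highest being library 1, where ITGA5 was 66.8 TPM and ITGA3 67.0 TPM. Ratios of this kind do not depend on the mitochondrial share, since both genes carry the same scaling.

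**Figure D4:**
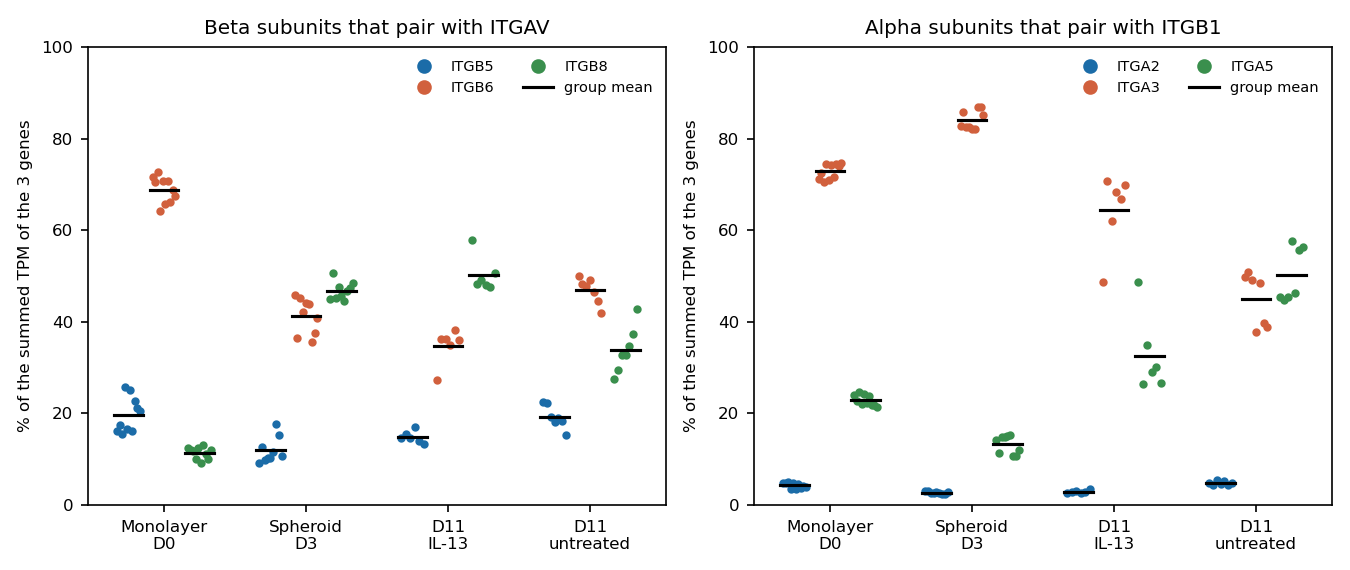
Share of the summed TPM of 3 genes (y axis, %), by group along the x axis. The left panel holds ITGB5, ITGB6 and ITGB8, beta chains that pair with ITGAV. The right panel holds ITGA2, ITGA3 and ITGA5, alpha chains that pair with ITGB1. Other partners of ITGAV and ITGB1 were left out. Each point is 1 library and each line a group mean. ITGB8 is above ITGB6 in mean share at D3 and under IL-13, and at D11 untreated the ITGA5 points lie above those of ITGA3 in the 3 batch 2 libraries and below them in the 4 batch 1 libraries.

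The 2 experiments differed for several of the genes. In the monolayer, ITGAV had 44.4 to 50.5 TPM in batch 2 and 23.9 to 29.6 TPM in batch 1, and ITGA3 had 525.5 to 562.9 TPM in batch 2 and 404.5 to 419.4 TPM in batch 1. ITGB6 and ITGB8 ran the other way, with 18.5 to 20.8 TPM and 2.6 to 3.7 TPM in batch 2 and 22.3 to 27.1 TPM and 3.8 to 4.6 TPM in batch 1. A fit with the interaction of group and batch, over the 26 libraries with a batch label per column, tested whether a change differed between experiments. The change at D3 against the monolayer differed for 4 of the 8 genes, ITGA3, ITGAV, ITGB5 and ITGB6, as it did for 45.2% of all tested genes. For ITGAV it was -2.32 in batch 2 and -1.58 in batch 1 (limma adjusted p of the difference = 4.1e-05), and for ITGA3 -1.67 in batch 2 and -1.12 in batch 1 (adjusted p = 0.00087). All 8 genes kept 1 direction in both experiments at this step. Without D3 libraries 4 and 7, which lay nearer to the other batch, these 4 genes were still called and ITGB1 was called too (difference -0.28, adjusted p = 0.014), as were 48.4% of all tested genes. Both libraries were picked from these same data, so leaving them out by itself tends to separate the batches at D3 and to shrink the spread.

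The change at D11 untreated against the monolayer differed for 4 of the 8 genes (ITGA3, ITGAV, ITGB5 and ITGB8), as for 48.3% of all tested genes. In the fit without D3 libraries 4 and 7, ITGB1 was called as well (difference -0.22, limma adjusted p = 0.04), as were 54.3% of all tested genes. With them the ITGB1 difference was also -0.22 (limma adjusted p = 0.07). No D3 library enters that difference, so only the estimate of the spread changed. ITGAV changed by -2.08 in batch 2 and -1.05 in batch 1 (limma adjusted p of the difference = 1.1e-06). Between D11 untreated and D3 the interaction was called for 0 of the 8 genes with limma, against 23.8% of all tested genes. That count depends on whether D3 libraries 4 and 7 are kept. Since they were picked by their distance to the batches in these same data, the fit without them cannot decide the question. Without them the interaction was called for 2 genes, ITGAV (batch 2 minus batch 1 -0.42, limma adjusted p = 0.0047) and ITGB6 (-0.46, limma adjusted p = 0.0017), against 39.5% of all tested genes. With them the same differences were -0.30 (limma adjusted p = 0.11) and -0.34 (limma adjusted p = 0.057). By their labelled batches, ITGA5 changed by 1.75 in batch 2 and 1.51 in batch 1 at that step, and ITGA3 by -1.33 in batch 2 and -1.13 in batch 1. In batch 2 alone, ITGAV, ITGB6 and ITGB8 missed the threshold at that step (changes 0.24, 0.09 and -0.21, adjusted p = 0.052, 0.46 and 0.069).

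The counts of related genes that follow are read against all tested genes as deposited, of which 12.7% rose and 68.2% fell at D3 against the monolayer, 33.6% and 35.8% at D11 untreated against D3, 21% and 63.5% at D11 untreated against the monolayer, and 39.2% and 8.49% with IL-13. Of the 18 other integrin subunits 6 passed the filter. At D3 against the monolayer 1 of the 6 rose and 5 fell, at D11 untreated against D3 3 rose and 2 fell, at D11 untreated against the monolayer 1 rose and 5 fell, and with IL-13 1 rose and 2 fell. Under median-of-ratios scaling 4 fell at D3, and with the mitochondrial genes removed 2 rose and 4 fell at D11 untreated against D3. ITGA6 and ITGB4, the hemidesmosome pair, both fell at D3 and fell again with IL-13 under all 4 scalings. ITGA6 averaged 121.3 TPM in the monolayer, 72.1 TPM at D3, 67.5 TPM at D11 with IL-13 and 93.7 TPM at D11 untreated, and its rise at D11 untreated against D3 (0.36) turned to -0.23 with the mitochondrial genes removed. ITGB4 averaged 303.1 TPM in the monolayer, 127.7 TPM at D3, 150.2 TPM at D11 with IL-13 and 226.0 TPM at D11 untreated. At D11 untreated against the monolayer ITGA6 and ITGB4 changed by -0.37 and -0.38 as deposited, but by 0.22 and 0.21 under median-of-ratios scaling (limma adjusted p = 0.0083 and 0.067). ITGB7, a chain known mainly from lymphocytes, rose at D3, at D11 untreated and with IL-13 under all 4 scalings, with 0.05 TPM in the monolayer, 0.40 TPM at D3, 5.35 TPM at D11 with IL-13 and 2.44 TPM at D11 untreated. ITGA1, ITGA10 and ITGAE were at most 2.0 TPM in every library.

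Of 19 tested matrix proteins that integrins bind, 14 fell and 2 rose at D3 against the monolayer, a share of falls near the 68.2% of all tested genes. Their median change was -2.51, against -0.44 over all tested genes, and under median-of-ratios scaling 14 fell and 5 rose. FN1 (fibronectin, the ligand of ITGA5 with ITGB1) averaged 7.66 ± 0.76 TPM at D3 and 1062 ± 465.6 TPM in the monolayer, and fell by 6.84 (SE 0.15, limma adjusted p = 6e-26). CCN2, a matricellular protein, averaged 1.42 ± 0.34 TPM at D3 and 179.2 ± 65.0 TPM in the monolayer. COL1A1, a fibrillar collagen chain, and NPNT (nephronectin) were the 2 that rose as deposited.

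Between D11 untreated and D3, 12 matrix ligands rose and 4 fell. LAMB3, a chain of the laminin that ITGA3 binds, averaged 333.4 ± 17.4 TPM at D11 untreated and 95.8 ± 20.2 TPM at D3, a rise of 1.88 beside the fall of ITGA3. THBS1 (thrombospondin) fell, with 27.5 ± 2.3 TPM at D11 untreated and 100.9 ± 30.4 TPM at D3, and had averaged 3370 ± 429 TPM in the monolayer. Against the monolayer 4 ligands were higher and 15 lower at D11 untreated. The medians kept their sign under the other 3 scalings in each of these comparisons.

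With IL-13, 3 matrix ligands rose and 12 fell, with a median change of -0.41, against 0.19 over all tested genes. TNC (tenascin C, which ITGAV receptors bind) averaged 39.5 ± 9.1 TPM with IL-13 and 6.66 ± 2.05 TPM untreated, and rose by 2.44 (SE 0.26, limma adjusted p = 5.8e-09). POSTN (periostin, another ITGAV ligand) averaged 3.43 ± 1.23 TPM with IL-13 and 0.19 ± 0.04 TPM untreated, and rose by 1.89 (SE 0.14, limma adjusted p = 6.8e-12). TGFBI, an adhesion protein bound by ITGA3 and ITGAV receptors, fell by 1.31 (SE 0.14, limma adjusted p = 5.6e-09), with 176.3 ± 37.0 TPM with IL-13 and 445.0 ± 42.1 TPM untreated. L1CAM, which carries an integrin-binding motif, fell by 1.06 (SE 0.12, limma adjusted p = 3e-08).

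The list of TGF-beta ligands and LTBP proteins had 5 tested members. ITGAV with ITGB6 or ITGB8 is known to bind the latency peptide of TGFB1, while that of TGFB2 lacks the motif these receptors bind and LTBP2 is not known to carry latent TGF-beta. All 5 fell at D3 against the monolayer as deposited, where 68.2% of all tested genes fell, and 4 under median-of-ratios or quantile scaling. TGFB2 averaged 0.39 ± 0.09 TPM at D3 and 3.56 ± 0.91 TPM in the monolayer, and LTBP2, a matrix protein, 2.70 ± 0.42 TPM at D3 and 19.6 ± 4.4 TPM in the monolayer. TGFB1 and LTBP2 rose and 0 fell by limma at D11 untreated against D3, and 2 rose and 3 fell with the mitochondrial genes removed. TGFB1 averaged 49.6 ± 8.0 TPM at D11 untreated and 29.4 ± 4.2 TPM at D3. Against the monolayer, 0 were higher and 4 lower by limma at D11 untreated. With IL-13, 3 rose and 0 fell by limma as deposited, with LTBP4 at 0.47 and LTBP3 at 0.41 the largest, and 1 rose and 1 fell under median-of-ratios scaling, where LTBP4 and LTBP3 missed the threshold.

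Adaptors and kinases that link integrins to actin fell at D3, with 25 of 27 tested members lower and 2 higher, where 68.2% of all tested genes were lower and 12.7% higher. The median change was -1.07, against -0.44 over all tested genes. ACTN1 (an actin cross-linker) averaged 12.8 ± 4.0 TPM at D3 and 74.0 ± 8.1 TPM in the monolayer. ILK, a pseudokinase that binds the ITGB1 tail, averaged 11.8 ± 3.3 TPM at D3 and 39.6 ± 4.7 TPM in the monolayer. KANK1 and TNS4, which bind talin and integrin tails, were the 2 that rose. Between D11 untreated and D3, 11 rose and 12 fell, with FLNA (filamin A) at -1.24 the largest fall, and with the mitochondrial genes removed 4 rose and 19 fell. Against the monolayer, 2 were higher and 24 lower at D11 untreated as deposited, and 6 and 19 under median-of-ratios scaling. With IL-13, 5 rose and 7 fell as deposited, with TNS2 at 0.77 the largest rise and KANK2 at -0.49 the largest fall, and 2 rose and 10 fell under median-of-ratios scaling.

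Of 12 membrane proteins that associate with integrins, 1 rose and 8 fell at D3 as deposited, but 5 rose and 3 fell under median-of-ratios scaling. PLAUR, the urokinase receptor, fell at D3, rose at D11 untreated and fell with IL-13, under all 4 scalings. It averaged 12.6 ± 2.0 TPM in the monolayer, 1.21 ± 0.40 TPM at D3, 3.82 ± 1.13 TPM at D11 with IL-13 and 7.16 ± 1.40 TPM at D11 untreated. CD151, the tetraspanin that binds ITGA3, rose at D11 untreated, with 187.3 ± 12.3 TPM there and 104.2 ± 17.4 TPM at D3. Of the 12, 5 rose and 3 fell at D11 untreated against D3 as deposited, and 2 rose and 8 fell without the mitochondrial genes. Against the monolayer, 5 were higher and 7 lower at D11 untreated as deposited, 6 and 3 under median-of-ratios scaling and 1 and 9 without the mitochondrial genes. With IL-13, 3 rose and 3 fell.

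Of 10 genes of integrin traffic, 2 rose and 6 fell at D3 as deposited, and 5 rose and 2 fell under median-of-ratios scaling. RAB25, a GTPase that recycles ITGA5 receptors, averaged 7.84 ± 1.67 TPM in the monolayer, 39.1 ± 12.1 TPM at D3 and 126.3 ± 11.3 TPM at D11 untreated, and rose at both steps under all 4 scalings. DAB2, an endocytic adaptor, was listed at 0 in every spheroid library and at 2.1 to 3.8 TPM in the monolayer. Of the 10, 6 rose and 2 fell at D11 untreated against D3, and 3 rose and 4 fell without the mitochondrial genes. Against the monolayer, 5 were higher and 4 lower at D11 untreated, and 2 and 6 without the mitochondrial genes. With IL-13 5 rose and 0 fell by limma as deposited, among them RAB11FIP1, another recycling factor, with 25.8 ± 3.5 TPM with IL-13 and 15.4 ± 1.3 TPM untreated, and 2 rose and 2 fell under median-of-ratios scaling. The 5 of 10 that rose as deposited are near the 39.2% of all tested genes.

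For each of the 8 genes, the tested genes outside the set with the most similar profile were found by the root mean square difference of log2(TPM + 1), each gene centred on its own mean over the 32 libraries. All profiles share library depth and scaling, so the values are a description. ITGA5 was nearest to WNT7A (0.23), PLAUR (0.24) and LOXL2 (0.26), where the median over all genes was 0.92. ITGB1 was nearest to ADGRE3 (0.09), GALNT10 and CCDC88A, and ITGA3 to TOMM34 (0.17), ARPC1B and GLYCTK. ITGA2 was nearest to FGF5 (0.16), ASPHD2 and ST3GAL6, and among the 8 genes to ITGB6 (0.18), whose nearest genes outside the set were ASPHD2 (0.21), EHD4 and GALNT6. ITGAV was nearest to UAP1 (0.27), ASB1 and VMP1, and ITGB5 to CDC42EP3 (0.16), ATP13A2 and CDCP1. ITGB8 was nearest to CTDSPL (0.15), CMTM4 and NDUFB5, and its distance to the closest of the other members, ITGB5, was 0.92, against a median of 0.57 over all genes.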

How the data were processed

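The authors deposited 1 table of TPM values per gene symbol (rounded to 1 decimal, 32 libraries). The submitters' processing notes name the build hg38. No source used here gives the aligner, the quantifier or the annotation, and 1 part of the culture protocol is not reported here. TPM keeps no read depth, so depth and counting error are unknown. Every value column matched a sample or a group, but the 6 IL-13 columns matched their group only and carried its share in batch 2 (1 of 6).

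Of 19345 symbols, the 12221 that reached 1 TPM in 6 libraries were tested on log2(TPM + 1) with limma 3.58.1 in R 4.3.3, with an intensity trend, group and batch as terms, all 32 libraries in 1 fit, and Benjamini-Hochberg adjustment over all genes tested with a threshold of 0.05. A second limma fit over 26 libraries added the interaction of group and batch. Both fits were tested on simulated data. Values were summarised in Python 3.11.15, pandas 2.3.3 and numpy 2.4.6, and drawn with matplotlib 3.10.9. Alternatives covered the pseudocount, filter, scaling, batch, weights, libraries left out and a replicate block. Promoters come from RefSeq (GRCh38.p14) and gene spans from GENCODE release 29, and 18162 symbols of the table were in the gene name table used.

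The 8 genes, the pathway lists (other integrin subunits, matrix ligands, TGF-beta ligands and LTBP proteins, adhesion adaptors and kinases, integrin-associated membrane proteins, integrin traffic) and the marker lists were chosen with earlier results of these data known. Named genes were the 8 members, every other integrin subunit tested, genes among the 2 largest rises and 2 largest falls of a list in a comparison, and the 3 genes nearest in profile to each member. Group effects are medians and counts over a list, with no test of the list.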

Additional observations from a re-analysis of the deposited data

Results flagged for a closer look

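In the 6 D11 IL-13 libraries, library 1 stood apart from the others for 2 of the 8 genes, among 32 sets of 1 gene in 1 group that were examined. Chance puts about 1 in 20 such sets past this limit. By the labels 1 of the 6 IL-13 libraries belongs to batch 2, and the columns do not say which. Whether it is library 1 was not tested, so library and batch cannot be told apart here. ITGB1 had 21.0 TPM in that library and 33.3 to 37.8 TPM in the other 5. ITGB5 had 1.4 TPM in it and 1.8 to 1.9 TPM in the other 5. No member call changed without this library, and the changes under IL-13 were then 0.12 for ITGB1 (limma adjusted p = 0.13) and -0.35 for ITGB5 (limma adjusted p = 0.0024).

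The change against the monolayer differed between the 2 experiments for several genes, by a limma interaction term over 26 libraries. At D3 the change in batch 2 minus that in batch 1 was -0.74 for ITGAV (adjusted p = 4.1e-05), -0.55 for ITGA3 (adjusted p = 0.00087), -0.33 for ITGB5 (adjusted p = 0.017) and 0.34 for ITGB6 (adjusted p = 0.02). At D11 untreated it was -1.03 for ITGAV (adjusted p = 1.1e-06), -0.75 for ITGA3 (adjusted p = 6.5e-05), -0.61 for ITGB5 (adjusted p = 0.0002) and 0.37 for ITGB8 (adjusted p = 0.019). These comparisons share the monolayer libraries, in which ITGAV, ITGA3 and ITGB5 were higher in batch 2 and ITGB6 and ITGB8 higher in batch 1. The D3 values rest on the labelled batches, and D3 libraries 4 and 7 lay nearer to the other batch. Without them the D3 differences were -0.61 for ITGAV, -0.68 for ITGA3, -0.45 for ITGB5 and 0.46 for ITGB6, each still called by limma. With both libraries kept, the batch 2 and batch 1 ranges of all 5 genes overlapped at D3. Without them those of ITGAV did not (8.9 to 10.2 TPM in batch 2 and 7.1 to 8.7 TPM in batch 1).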

How the results depend on the processing

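Over the alternatives other than single libraries left out, 427 values of the 8 genes kept their call (and their direction where called), 16 lost the call, 1 gained it and 4 turned. With the mitochondrial genes removed, the D11 untreated change against D3 turned to -0.0337 for ITGA2, -0.12 for ITGAV and -0.26 for ITGB6, and that of ITGB8 against the monolayer to -0.25. That setting called 1663 genes higher and 8018 lower at D11 untreated against D3, with 1 of the 8 genes higher, and 1479 higher against the monolayer, with 0 of the 8. With IL-13 it left 1 of the 8 higher. Median-of-ratios scaling called 4064 genes higher and 4052 lower at D3 against the monolayer, 4916 and 4902 at D11 untreated against the monolayer, and 2362 and 2515 with IL-13, where 1 of the 8 genes was higher. Quantile normalization called 3706 higher and 4421 lower at D3, 4352 higher at D11 untreated against the monolayer, and 2289 higher and 2536 lower with IL-13, where 1 of the 8 was higher. At D11 untreated against the monolayer, 0 of the 8 were higher with library weights and in batch 1 alone, where 3042 and 2941 of all 12221 tested genes were higher. In batch 2 alone 3 of the 8 were higher at D11 untreated against D3, as were 3355 of all tested genes. Against the untreated libraries of batch 1 alone, 2414 genes were higher with IL-13. The cause of these moves was not tested. Leaving out 1 library at a time (520 values) changed no member call, and IL-13 calls ranged from 4101 (without IL-13 library 3) to 6130 genes higher (without IL-13 library 1). Without D3 libraries 4 and 7, the batch interaction of D11 untreated against D3 was called for 4826 genes and 2 of the 8, against 2908 and 0 with them. Scalings of the pathway lists and this interaction fit were added after seeing the data.

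Same-numbered libraries were not taken as pairs. They shared a labelled batch in 2 of 9 cases at D3 against the monolayer and 3 of 7 at D11 untreated against D3. At D11 untreated against the monolayer it was 6 of 7. In the same order 4 of 9, 2 of 7 and 0 of 7 correlations passed 0.1. These were correlations of deviations from the group mean with batch left in, so they also carry batch differences. With the replicate block the counts were 1551 higher and 8376 lower, 4085 and 4488, and 2519 and 7758, and no member call changed. For the IL-13 comparison no paired analysis was possible, because the numbers of the IL-13 columns match none of the sample titles. Values to 1 decimal limit ITGB5, at 1.1 to 1.9 TPM at D3.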

Other observations

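Integrin subunits below the filter were outside every comparison. ITGB2, the leukocyte beta chain, had at most 0.1 TPM in any spheroid library and 0.6 to 0.9 TPM in the monolayer. ITGAX, a partner of ITGB2 in myeloid cells, had 0.1 to 0.6 TPM at D11 with IL-13, at most 0.2 TPM at D11 untreated and 0.0 TPM in the monolayer. ITGA8, ITGA11 and ITGAL were listed at 0 in all 32 libraries, and ITGB3, another partner of ITGAV, reached at most 0.1 TPM.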
